A study of Mus musculus with 12 samples.

Results

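Trim34a, Trim12a, Trim12c, Trim30a and Trim30d are 5 tripartite motif genes that lie close together on mouse chromosome 7, and they are described here over the cell types and both mouse strains of the series, BALB/c and B6. They were chosen by earlier results of these arrays, as genes of this cluster read as low in BALB/c, out of 22180 genes named by a probe set with 1 symbol. Each member was read from the probe set whose only symbol is that gene, and for Trim34a, which has 2 such probe sets, from the brighter by its mean over the 12 arrays. The values do not bear out a low BALB/c level for every member. Trim12a and Trim34a were low in BALB/c in both cell types and Trim30d mainly in ROR- cells, and Trim30a hardly differed between the strains. Trim12c was higher in BALB/c on the 1 probe set that lists it alone. Because the strain difference chose the genes, it is described below without a test, and tests are given for the differences between cell types.

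Tripartite motif (TRIM) proteins are mostly ubiquitin ligases built from a RING finger, B-boxes and a coiled coil, and many are induced by interferon and act against viruses. Trim12a and Trim12c are rodent relatives of TRIM5, which binds the capsid of incoming retroviruses, and Trim34a is the mouse counterpart of TRIM34, whose gene lies beside that of TRIM5 in human. Trim30a is known to dampen Toll-like receptor signalling to NF-kB by removing TAB2 and TAB3, the adaptors of the kinase TAK1, and Trim30d, also called Trim79, is known to restrict a flavivirus.

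The series asked how invariant natural killer T (iNKT) cells of B6 and BALB/c mice differ in transcription. Total RNA of 12 samples was read on Affymetrix whole-transcript arrays, 3 samples each for iNKT17 and ROR- cells of BALB/c mice, and 2 samples each for iNKT17, ROR- and gamma-delta 17 cells of B6 mice, which makes 5 groups. iNKT17 cells are the iNKT subset that makes interleukin 17, gamma-delta 17 cells are gamma-delta T cells of the same kind, and ROR- names cells without ROR; no treatment, allele, age or organ is named. Nothing says that replicates are separate animals, so p-values cover the spread between these samples alone, and that spread may be technical.

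The cell types were checked by markers. Of 7 type 17 markers 6 were measured, and their mean log2 level per array lay between 8.15 and 9.30 in iNKT17 and gamma-delta 17 cells against 4.50 to 6.26 in ROR- cells, while Cd3e, a chain of the T cell receptor complex, read 11.1 to 11.8 on all 12 arrays. A pair of arrays stood apart. Il23r, the interleukin 23 receptor, read 7.0 on BALB/c ROR- replicate 2, and no other ROR- array read above 3.67. B6 gamma-delta 17 replicate 1 carried some neutrophil, CD8 and thymocyte markers, which were picked after their values were seen. S100a8 read 9.30 there against at most 2.44 on the other arrays, S100a9 9.0 against 3.98, Lyz2 6.86 against 3.82 and Cd8a 8.76 against 6.74. Dntt, the terminal transferase of developing lymphocytes, read 5.52 there and at most 3.64 elsewhere, and Themis 6.51 against 3.79 on the other gamma-delta 17 array. Of the thymocyte list 5 of 6 genes were measured, with a mean of 4.78 and 3.80 on the gamma-delta 17 arrays, and Rag2 was at most 2.94 on both. The mean of 6 neutrophil markers was 5.95 on this array and between 3.48 and 3.67 on those of the other groups. Not every neutrophil marker was raised: Ly6g read 3.55 to 3.92 on the gamma-delta 17 arrays and up to 4.13 in B6 iNKT17 cells. Lyz2 is from the list of macrophages, monocytes and dendritic cells. Of that list, Adgre1 read 3.42 to 3.58 on the gamma-delta 17 arrays and up to 4.50 in BALB/c ROR- cells. The members' differences between cell types that rest on B6 gamma-delta 17 replicate 1 are given with and without it. Group means, r and the results of gene lists are given only with it.

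The sequences around the transcription starts are shown because all 5 genes share a motif there. They come from RefSeq on GRCm38.p6, the reference assembly of the B6 strain, and each holds 80 bases before the start and 30 from the start on, read 5′ to 3′ along the gene. Capitals mark the core of the interferon-stimulated response element, searched as TTTCNNTTTC on both strands (GAAANNGAAA on the other strand), which interferon-activated transcription factors are known to bind.
Trim34a, chr7:104244377-104244486, plus strand: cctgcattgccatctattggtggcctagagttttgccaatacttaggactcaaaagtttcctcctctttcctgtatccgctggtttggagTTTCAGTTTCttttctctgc
Trim12a, chr7:104315466-104315575, minus strand: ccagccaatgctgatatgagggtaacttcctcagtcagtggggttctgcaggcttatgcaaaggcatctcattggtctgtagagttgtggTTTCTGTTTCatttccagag
Trim12c, chr7:104353320-104353429, minus strand: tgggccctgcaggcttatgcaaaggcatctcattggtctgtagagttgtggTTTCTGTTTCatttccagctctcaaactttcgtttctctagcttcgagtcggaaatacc
Trim30a, chr7:104465164-104465273, minus strand: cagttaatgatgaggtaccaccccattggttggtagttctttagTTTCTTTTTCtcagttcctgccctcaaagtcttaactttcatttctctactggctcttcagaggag
Trim30d, chr7:104507820-104507929, minus strand: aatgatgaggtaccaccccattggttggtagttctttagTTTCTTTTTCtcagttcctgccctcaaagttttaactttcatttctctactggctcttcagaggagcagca

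All 5 members were in the promoter table, and all 6 of their windows of 300 bases (250 before the start, 50 after) held the motif, Trim30a having a pair of annotated starts. Over all genes the motif was in 1131 of 32851 windows (3.44%), or at 1079 of 27025 genes (3.99%). The match began at base 11 of the annotated transcript in Trim34a and Trim12a (the start being base 1), at base 3 from the downstream start of Trim30a, 29 bases before the start in Trim12c, 36 before the upstream start of Trim30a and 41 before that of Trim30d. The windows of Trim12a and Trim12c were 94.6% identical over 261 aligned columns and those of Trim30a and Trim30d 93.6% over 295, so within each of these pairs the motif is one shared sequence at a different distance from the annotated start. Among the other Trim genes nearby, the window of Trim5 held it, identical to that of Trim12a over 241 columns, and those of Trim34b, Trim30b, Trim30c and Trim6 did not. Members with the motif therefore included both those low and that high in BALB/c. A match is a description of the reference letters, and no BALB/c sequence was used here.

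**Figure D1:**
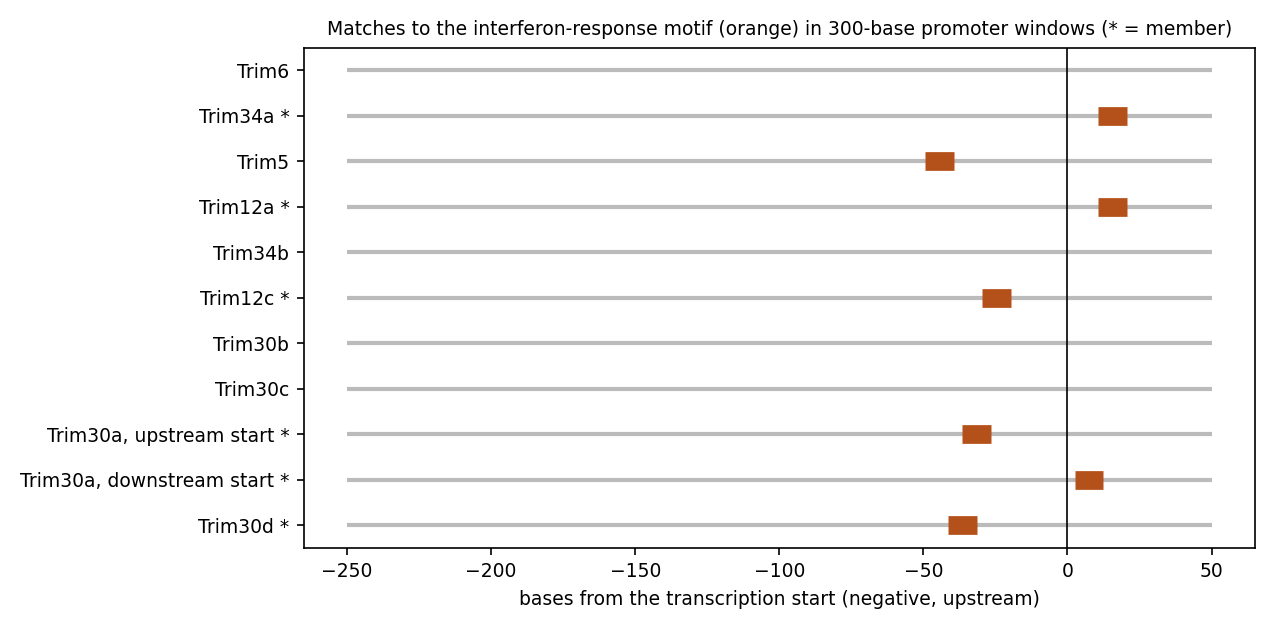
Each grey line is a 300-base promoter window of a Trim gene, the x axis is the distance in bases from the annotated transcription start, and orange blocks are matches to the interferon-response motif on the gene's own strand. The members (*) each have 1 match per window, between 41 bases before and 20 bases after the start, and Trim6, Trim34b, Trim30b and Trim30c have none.

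Trim12a gave the widest strain difference of the 5 in ROR- cells. On the log2 scale its probe set read 3.69, 3.49 and 3.63 on the BALB/c ROR- arrays (replicates 1 to 3) and 4.11, 4.44 and 3.95 on the BALB/c iNKT17 arrays. It read 8.24 and 7.48 in B6 ROR-, 7.76 and 6.41 in B6 iNKT17 and 6.64 and 7.42 in B6 gamma-delta 17 cells. Every B6 array lay above every BALB/c array, while the B6 iNKT17 arrays overlapped those of both other B6 groups, between which the gamma-delta 17 arrays lay just below the ROR- arrays. The order of the means was BALB/c ROR- (3.6 ± 0.10, SD, n = 3), BALB/c iNKT17 (4.16 ± 0.25, n = 3), B6 gamma-delta 17 (7.03 ± 0.55, n = 2), B6 iNKT17 (7.09 ± 0.95, n = 2) and B6 ROR- (7.86 ± 0.54, n = 2). BALB/c minus B6 was -2.92 in iNKT17 cells, a 7.58-fold lower level, and -4.26 in ROR- cells, a 19.2-fold lower level. The BALB/c ROR- values lie just above 3.45, the 30th percentile of all named probe-set values and called the dim level here, so the size of the fold there is uncertain. The labels name bulk samples, in which fewer cells that use a gene and less RNA per cell cannot be told apart.

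Trim34a followed the same pattern. It read 4.64, 4.24 and 3.96 in BALB/c ROR- cells and 4.52, 4.29 and 4.55 in BALB/c iNKT17 cells. In B6 it read 8.31 and 7.81 in ROR-, 8.06 and 7.18 in iNKT17, and 7.24 and 8.07 in gamma-delta 17 cells. The strains were again separate on every array, the BALB/c groups overlapped each other and so did the B6 groups. The means ran in the order BALB/c ROR- (4.28 ± 0.34), BALB/c iNKT17 (4.45 ± 0.14), B6 iNKT17 (7.62 ± 0.62), B6 gamma-delta 17 (7.66 ± 0.58) and B6 ROR- (8.06 ± 0.35). BALB/c minus B6 was -3.17 in iNKT17 cells (8.98-fold lower) and -3.78 in ROR- cells (13.7-fold lower). The dimmer Trim34a probe set went the same way, by -2.56 and -3.07.

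Trim30d differed between the strains mainly in ROR- cells, and within B6 it read lower in iNKT17 cells than in the other groups. It read 3.36, 2.99 and 3.65 in BALB/c ROR- cells and 4.05, 3.21 and 3.51 in BALB/c iNKT17 cells, so 3 of these 6 arrays lay below the dim level. In B6 it read 6.13 and 5.43 in ROR- cells, 4.12 and 4.14 in iNKT17 cells, and 5.35 and 6.07 in gamma-delta 17 cells. The B6 iNKT17 arrays lay just above the highest BALB/c array and below the other B6 arrays, which overlapped each other. The means were 3.33 ± 0.33 in BALB/c ROR-, 3.59 ± 0.43 in BALB/c iNKT17, 4.13 ± 0.01 in B6 iNKT17, 5.71 ± 0.51 in B6 gamma-delta 17 and 5.78 ± 0.49 in B6 ROR- cells. BALB/c minus B6 was -0.54 in iNKT17 cells (1.46-fold lower) and -2.44 in ROR- cells (5.44-fold lower), where the BALB/c mean lies below the dim level, so the size of that fold is uncertain.

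Trim12c went the other way. It read 7.17, 7.14 and 7.82 in BALB/c ROR- cells and 7.20, 6.68 and 7.0 in BALB/c iNKT17 cells, against 6.06 and 6.58 in B6 ROR-, 6.41 and 5.53 in B6 iNKT17 and 5.42 and 5.41 in B6 gamma-delta 17 cells. Every BALB/c array lay above every B6 array, the opposite of Trim12a. From the top the means ran from BALB/c ROR- (7.38 ± 0.38) through BALB/c iNKT17 (6.96 ± 0.26), B6 ROR- (6.32 ± 0.37) and B6 iNKT17 (5.97 ± 0.62) to B6 gamma-delta 17 (5.42 ± 0.01). Neighbouring groups in this order overlapped, apart from BALB/c iNKT17 against B6 ROR- and B6 iNKT17 against gamma-delta 17. BALB/c minus B6 was 0.99 in iNKT17 cells (1.99-fold higher) and 1.05 in ROR- cells (2.08-fold higher). These values rest on the 1 probe set that lists Trim12c alone. A brighter probe set that lists Trim12c and Trim5, with group means of 8.72 to 9.55, differed by 0.48 in iNKT17 and 0.16 in ROR- cells. Its arrays overlapped between the strains in both cell types.

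Trim30a varied little. It read 5.22, 4.49 and 5.08 in BALB/c ROR- cells, 4.92, 4.50 and 4.43 in BALB/c iNKT17 cells, 5.40 and 4.92 in B6 ROR-, 4.76 and 4.43 in B6 iNKT17, and 4.95 and 5.22 in B6 gamma-delta 17 cells. The arrays of the strains overlapped in both cell types. Its means were 4.6 ± 0.23 in B6 iNKT17, 4.61 ± 0.27 in BALB/c iNKT17, 4.93 ± 0.39 in BALB/c ROR-, 5.09 ± 0.19 in B6 gamma-delta 17 and 5.16 ± 0.34 in B6 ROR- cells. BALB/c minus B6 was 0.01 in iNKT17 and -0.23 in ROR- cells, within the SD of these groups.

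**Figure D2:**
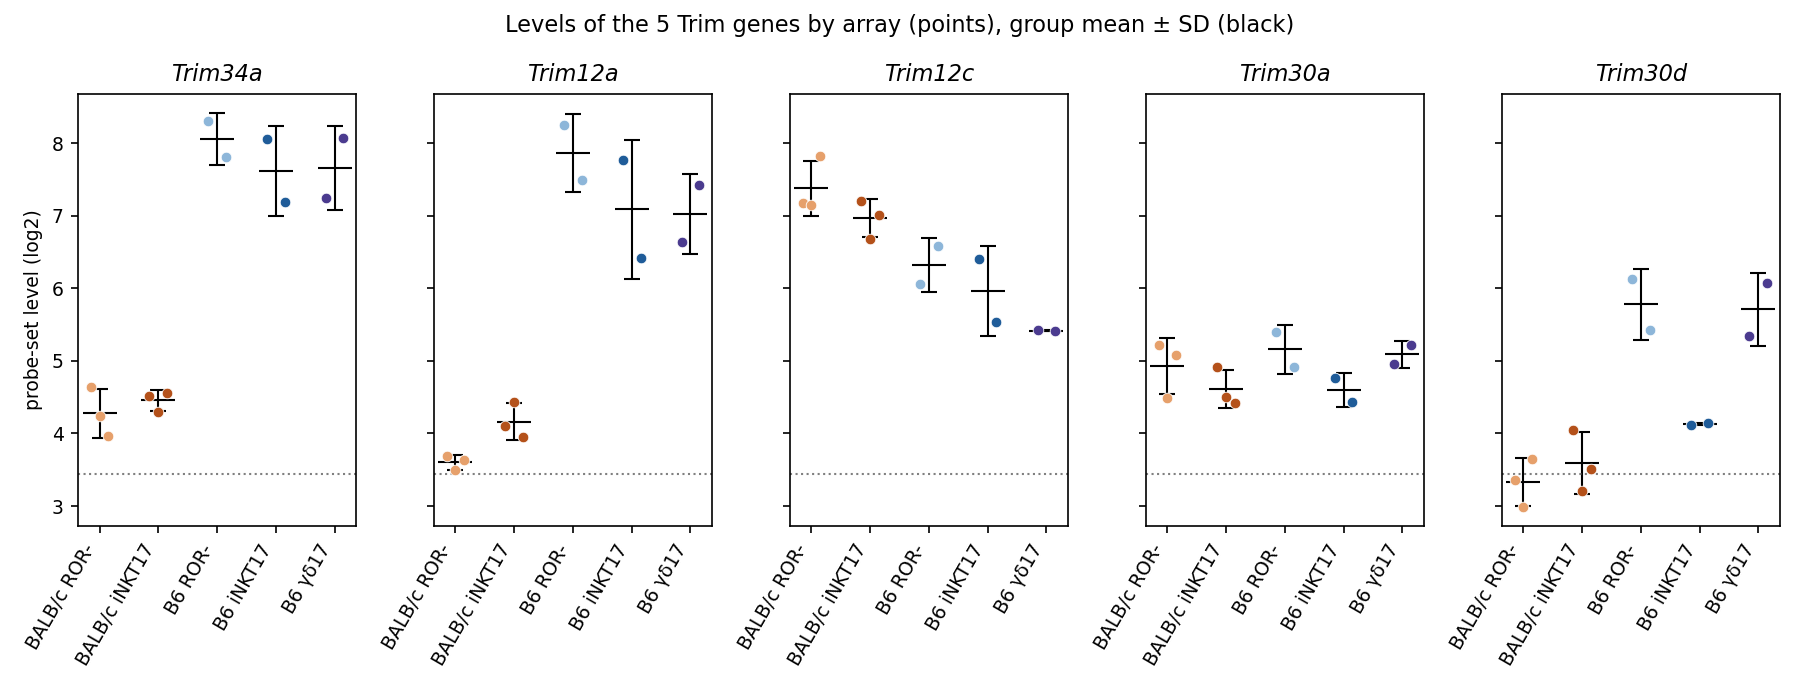
Log2 probe-set level of each gene (y axis) on every array (points) in the 5 groups (x axis), with the group mean and SD in black and the dim level of 3.45 as a dotted line. B6 arrays lie above BALB/c arrays for Trim34a, Trim12a and Trim30d and below them for Trim12c, and the strains overlap for Trim30a.

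Read against all genes, 2 members (Trim12a and Trim34a) were lower in BALB/c iNKT17 cells by at least 1 log2 unit with no overlap of the arrays, where 1.57% of the 16667 genes tested were. In ROR- cells it was 3 members, Trim30d being the third, against 1.11% of genes. In the other direction 0 members passed this size in iNKT17 cells, where 0.552% of genes did, and 1 member, Trim12c, in ROR- cells, against 0.378%. The median difference of the 5 members was -0.54 in iNKT17 and -2.44 in ROR- cells, and the median of all genes tested 0.03 and 0.01. These counts describe the genes that were picked for them and test nothing.

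The other probe sets of the cluster did not share 1 direction. Along the chromosome, from Trim34a to Trim30d, RefSeq places 16 genes, 9 of them Trim genes, in the order Trim34a, Trim5, Trim12a, Trim34b, Trim12c, Trim30b, Trim30c, Trim30a and Trim30d. A probe set shared by Trim34b and Trim34a read 6.72 ± 0.71 in BALB/c and 5.03 ± 0.66 in B6 iNKT17 cells, a difference of 1.69 with no overlap, and 1.15 higher in BALB/c ROR- cells with overlap. The pair of probe sets shared by Trim12c and Trim5 differed by 0.48 and 0.22 in iNKT17 and by 0.16 and -0.12 in ROR- cells. Trim5 and Trim34b have no probe set of their own here. Trim6, Trim30b, Trim30c and the pseudogene Trim30e-ps1 were not tested, as each had group means of at most 3.59 and fewer than 2 arrays above the dim level; the highest was Trim30c on B6 gamma-delta 17 replicate 1, at 4.12. Probe sequences were not used here, so whether each probe set reads only its named gene among these close relatives, and the copies of both strains equally well, was not tested.

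**Figure D3:**
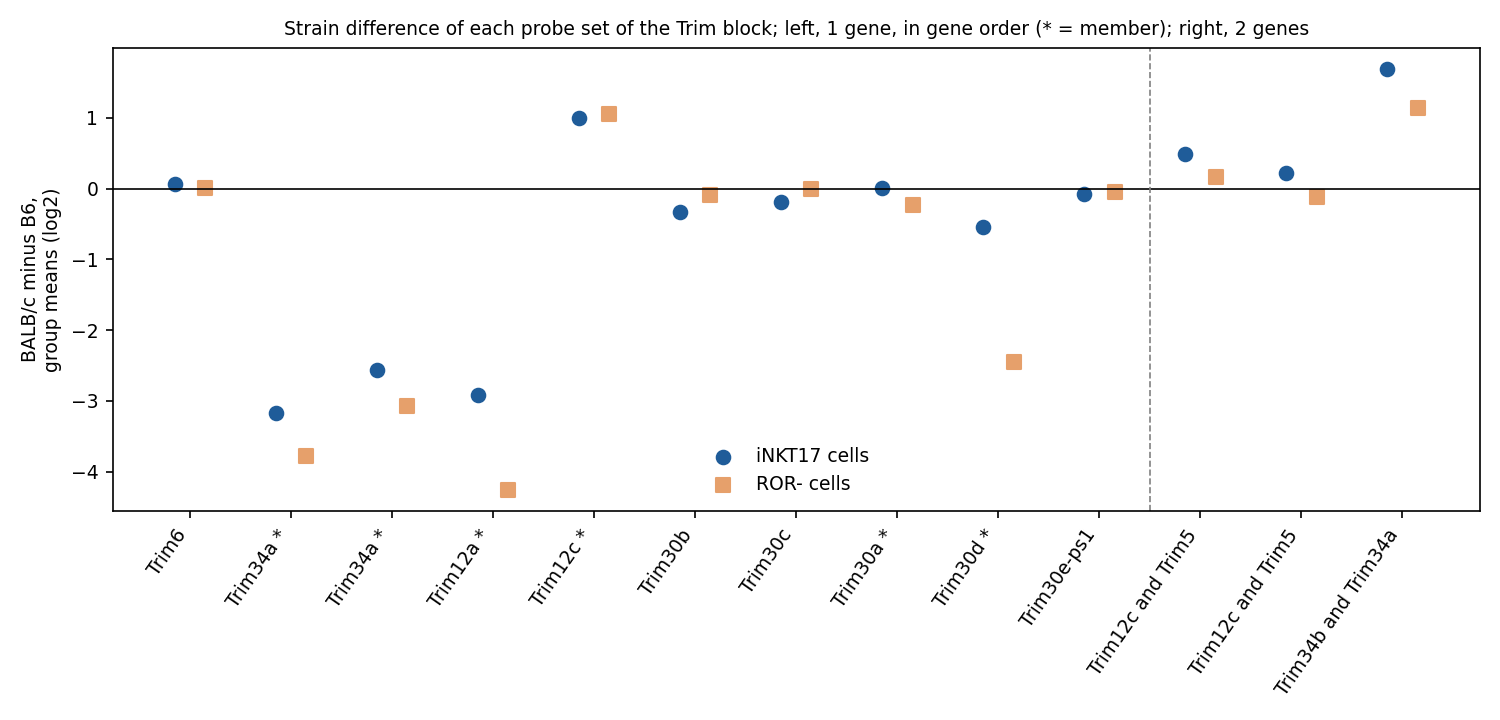
Difference of group means, BALB/c minus B6 (log2, y axis), for each probe set of the Trim genes of the cluster (x axis), in iNKT17 cells (circles) and ROR- cells (squares). Both Trim34a probe sets and Trim12a lie between -2.56 and -4.26, Trim30d at -0.54 and -2.44, and Trim12c and the probe set shared by Trim34b and Trim34a between 0.99 and 1.69.

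Around the members, 23 other genes were measured in the stretch that reaches 10 genes to each side, 8 of them bright enough to test, mostly olfactory receptor genes. One of them, the lncRNA gene Gm15133, overlaps the start of Trim12a on the opposite strand. Gm15133 read 4.61 and 4.11 in B6 ROR- cells, 2.95 and 3.28 in B6 iNKT17 cells and 3.07 and 3.05 in B6 gamma-delta 17 cells, and between 2.27 and 2.73 in BALB/c. Only the B6 ROR- arrays were above the dim level. The gene passed the filter on low values through those arrays alone, where it is high, so its differences are given without a test and their sizes are uncertain. In B6 they were -1.25 for iNKT17 minus ROR- and -1.30 for gamma-delta 17 minus ROR- cells (-1.31 without gamma-delta 17 replicate 1). For BALB/c minus B6 they were -1.88 in ROR- and -0.67 in iNKT17 cells. The other 7 of the 8 neighbours did not pass limma's threshold in either strain comparison.

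Differences between cell types were then tested with limma, in 1 fit over 16667 genes with Benjamini-Hochberg adjustment. Between ROR- and iNKT17 cells of B6, Trim30d fell by 1.65 ± 0.33 log2 units (SE; 3.13-fold, 95% interval of the difference -2.36 to -0.93, adjusted p = 0.00970), and both iNKT17 arrays lay below both ROR- arrays. It was the only 1 of the 5 members to pass, where 5.99% of all genes did. The B6 arrays compared also enter the strain differences by which the members were chosen, so the call is not independent of that choice. The call was lost without B6 iNKT17 replicate 1 (-1.64, limma adjusted p = 0.0621), B6 iNKT17 replicate 2 (-1.66, 0.0658) or B6 ROR- replicate 1 (-1.30, 0.124). The other members were also lower in B6 iNKT17 cells without passing limma's threshold: Trim12a by -0.78 ± 0.39 (adjusted p = 0.380), Trim30a by -0.56 ± 0.26 (0.326), Trim34a by -0.44 ± 0.33 (0.628) and Trim12c by -0.35 ± 0.31 (0.692). Their 95% intervals reached down to -1.64, -1.13, -1.16 and -1.03.

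In BALB/c cells none of the 5 members passed limma's threshold between iNKT17 and ROR- cells, while 6.97% of genes did and 2978 genes had an unadjusted p under 0.05. None passed under any of the 21 alternatives either, among them leaving out BALB/c ROR- replicate 2, the array with the Il23r signal. Trim12a stood at 0.56 ± 0.32 (adjusted p = 0.409), its 3 iNKT17 arrays all above its 3 ROR- arrays. Trim30d stood at 0.25 ± 0.27 (0.702), Trim34a at 0.17 ± 0.27 (0.810), Trim30a at -0.32 ± 0.21 (0.504) and Trim12c at -0.41 ± 0.25 (0.445). With the mean of both Trim34a probe sets in place of the brighter, Trim34a stood at -0.19.

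Whether iNKT17 minus ROR- differed between BALB/c and B6 was fitted as an interaction. It equals the strain difference in iNKT17 cells minus that in ROR- cells. Strain differences chose the members, so the members' p-values here are no independent test, and no conclusion is drawn from them. None of the 5 members passed limma's threshold, where 0.084% of genes did, or 14, and 669 had an unadjusted p under 0.05. Trim30d had the widest value, 1.90 ± 0.42 (95% interval 0.98 to 2.82, limma adjusted p = 0.260), followed by Trim12a at 1.34 ± 0.51 (interval 0.23 to 2.45, adjusted p = 0.999). As the mean of both strains, 0 of 5 members passed limma's threshold, against 12.3% of genes and 3945 genes at an unadjusted p under 0.05. Trim30d missed it narrowly at -0.70 ± 0.21 (limma adjusted p = 0.0520) and passed under 7 of its 21 alternatives, among them leaving out either gamma-delta 17 array, BALB/c iNKT17 replicate 1 (0.0241) or BALB/c ROR- replicate 2 (0.0388). Trim30a stood at -0.44 ± 0.17 (limma adjusted p = 0.130) and passed without BALB/c ROR- replicate 2 (0.0353).

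B6 gamma-delta 17 cells were set beside both other B6 groups, which share these arrays. Against ROR- cells 0 of 5 members passed limma's threshold, where 6.02% of genes did and 3016 had an unadjusted p under 0.05. Trim12c was lowest, at -0.90 ± 0.31 (limma adjusted p = 0.127; -0.91 without gamma-delta 17 replicate 1), with both gamma-delta 17 arrays below both ROR- arrays. Trim12a stood at -0.83 ± 0.39 (0.294 after limma adjustment; -0.44 without that array) and Trim34a at -0.40 ± 0.33 (0.596; 0.01 without it). Trim30a stood at -0.07 ± 0.26 (limma adjusted p = 0.928; 0.07 without that array) and Trim30d also at -0.07, ± 0.33 (0.941; 0.29 without it).

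Between iNKT17 and gamma-delta 17 cells of B6, none of the 5 members passed limma's threshold, where 0.168% of genes did, or 28, and 1417 had an unadjusted p under 0.05. Trim30d was lower in iNKT17 cells by -1.58 ± 0.33 (limma adjusted p = 0.109) with no overlap of the arrays, and by -1.94 (0.0730) without gamma-delta 17 replicate 1. Trim12c stood at 0.55 ± 0.31 (limma adjusted p = 0.665; 0.56 without that array) and Trim30a at -0.49 ± 0.26 (0.646; -0.63 without it). Trim12a and Trim34a stood at 0.06 ± 0.39 and -0.03 ± 0.33, and at -0.33 and -0.45 without that array (limma adjusted p of 0.975, 0.982, and 0.998 for both without it). The part of the neutrophil, CD8 and thymocyte markers on that array in these values was not tested otherwise.

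**Figure D4:**
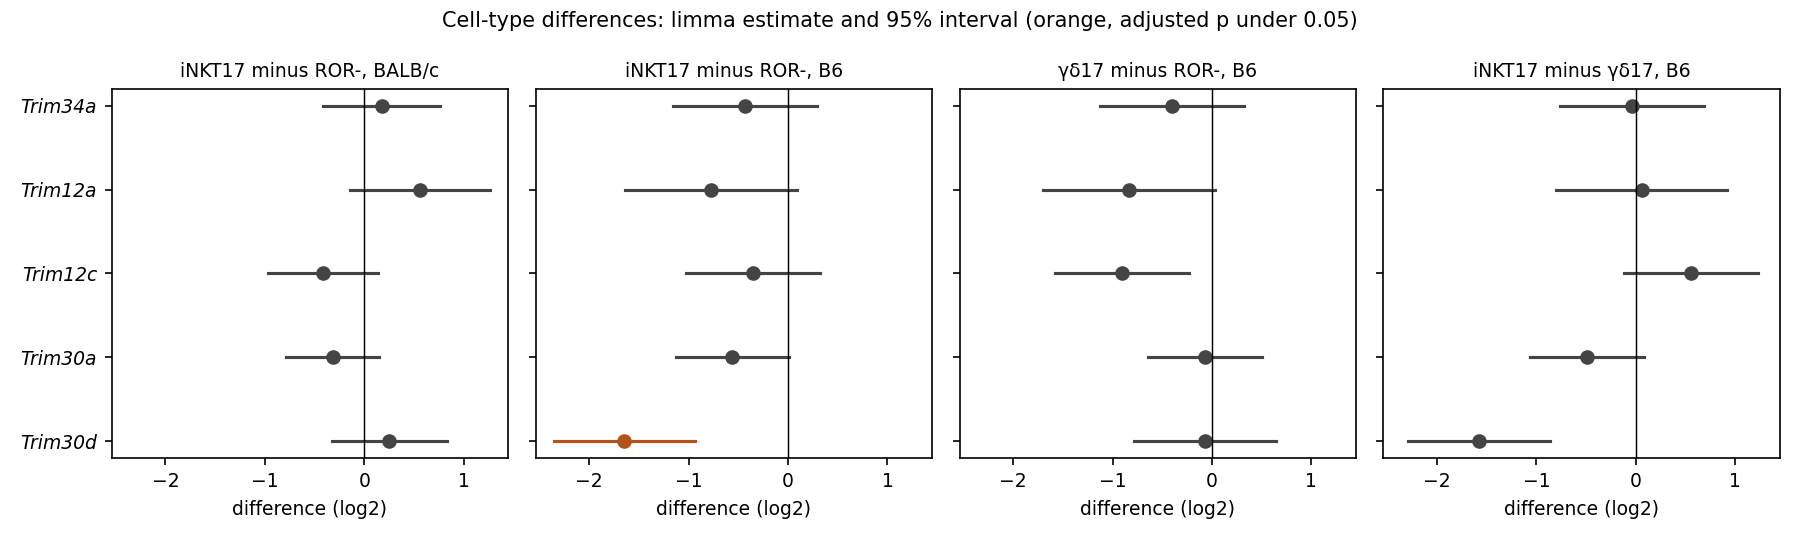
limma estimate (point) and 95% interval (line) of the log2 difference (x axis) for each gene (y axis) in 4 comparisons of cell types, with orange for an adjusted p under 0.05. Trim30d in B6, iNKT17 minus ROR- cells, at -1.65, is the only orange value.

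The genes of the interferon pathway around the members were read from lists. Over all genes tested, 1.48% passed limma's threshold between strains in iNKT17 cells and 1.22% in ROR- cells, with medians of 0.03 and 0.01. Between iNKT17 and ROR- cells it was 6.97% in BALB/c and 5.99% in B6. The counts of each list stand beside these shares, and no enrichment was tested. Of 6 interferon ligand genes tested, Ifna4 was the 1 lower in BALB/c in both cell types, by -1.67 ± 0.23 in iNKT17 (limma adjusted p = 0.00313) and -1.18 ± 0.23 in ROR- cells (0.0289). The call in ROR- cells was lost with only the groups compared and without B6 ROR- replicate 1 or BALB/c ROR- replicate 1 or 3 (adjusted p of up to 0.252). Of 21 receptor and signalling genes tested, 1 passed in each strain comparison, Ifngr1, the interferon gamma receptor chain that binds the cytokine, at -0.89 ± 0.18 in both (limma adjusted p = 0.0360 in iNKT17 and 0.0404 in ROR- cells). These Ifngr1 calls were lost under 8 and 11 of 21 alternatives, with adjusted p of up to 0.180 and 0.265. Between cell types 0 of the 21 rose and 3 fell in BALB/c, where 6.97% of all genes passed in either direction, and 0 rose and 4 fell in B6, where 5.99% did. Ifnar1, a chain of the receptor for type I interferon, fell by 0.75 ± 0.16 in BALB/c (limma adjusted p = 0.0158) and by 0.95 ± 0.20 in B6 (0.0145). Its B6 call was lost without any 1 of the 4 B6 arrays compared (adjusted p of up to 0.123) and its BALB/c call without BALB/c iNKT17 replicate 2 (0.0585). The medians of the list, -0.24 in BALB/c and -0.30 in B6, stood beside medians of 0.0043 and -0.0052 for all genes. In gamma-delta 17 minus ROR- cells of B6, 0 of the 21 rose and 4 fell, Ifnar1 (-0.77) among them, where 6.02% of all genes passed.

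Of 37 interferon-stimulated genes tested outside the cluster, 0 were higher and 3 lower in BALB/c iNKT17 cells, and 0 higher and 4 lower in BALB/c ROR- cells, with list medians of -0.07 and -0.28, where 1.48% and 1.22% of all genes passed. Oasl2, a 2′-5′ oligoadenylate synthetase-like gene, is one of the genes counted and stood at -2.30 in iNKT17 and -1.56 in ROR- cells. Both its BALB/c means were below the dim level, and it passed the filter through the B6 arrays, where it is high, so no p is given for it. Eif2ak2, the RNA-activated kinase PKR, was lower by -0.98 ± 0.13 (limma adjusted p = 0.00308) and -1.25 ± 0.13 (0.000620), calls kept under all 21 alternatives. Ifit1bl1 was lower in BALB/c ROR- cells by -2.07 ± 0.15 (limma adjusted p = 4.20e-05). From ROR- to iNKT17 cells 1 rose and 7 fell in BALB/c and 1 rose and 9 fell in B6, with medians of -0.30 and -0.44, where 6.97% and 5.99% of all genes passed. Ifit1bl1, counted among those that fell, stood at -2.12 in BALB/c and -3.75 in B6. It was above the dim level on ROR- arrays only and passed the filter through them, so these differences are given without a test. In gamma-delta 17 minus ROR- cells of B6, 0 of the 37 rose and 6 fell, where 6.02% of all genes passed. Ifit1bl1 stood at -3.65 there, again without a test. Between iNKT17 and gamma-delta 17 cells of B6, 0 of the 37 passed, where 0.168% of all genes did.

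Of 17 intrinsic antiviral factors tested, 1 was higher and 2 were lower in BALB/c iNKT17 cells, and 0 were higher and 1 lower in BALB/c ROR- cells, where 1.48% and 1.22% of all genes passed. The list shares 2 tested genes with the interferon-stimulated genes, Bst2 and Samhd1, which are counted in both. Apobec3, the cytidine deaminase that restricts retroviruses, was lower in both, by -1.75 ± 0.16 (limma adjusted p = 0.000223) and -1.77 ± 0.16 (0.000210), calls kept under all 21 alternatives. Its BALB/c arrays read 7.22 to 7.59 and its B6 arrays 8.83 to 9.57. From ROR- to iNKT17 cells 0 rose and 4 fell in BALB/c and 0 rose and 6 fell in B6, where 6.97% and 5.99% of all genes passed. Among those that fell were the membrane proteins Ifitm2 (-4.30 and -5.90) and Ifitm3 (-3.33 and -4.86), whose limma adjusted p lay between 0.000633 and 0.00324. In gamma-delta 17 minus ROR- cells of B6, 0 of the 17 rose and 4 fell, where 6.02% of all genes passed. Ifitm2 (-4.65) and Ifitm3 (-3.97) were among those 4. Between iNKT17 and gamma-delta 17 cells of B6, 0 of the 17 passed, where 0.168% of all genes did.

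Of 22 tested genes of TAK1, NF-kB and inflammasome signalling, the pathway on which Trim30a is known to act, 0 passed between strains in either cell type, where 1.48% and 1.22% of all genes passed and 2103 and 1990 of all genes had an unadjusted p under 0.05 in limma. Tab2, whose protein is a target of Trim30a, was read as RNA alone, and the protein was not measured. Its RNA rose from ROR- to iNKT17 cells by 0.68 ± 0.11 in BALB/c (limma adjusted p = 0.00264) and by 0.77 ± 0.14 in B6 (0.00533). The B6 call was lost with only the groups compared and without B6 iNKT17 replicate 1 or B6 ROR- replicate 2 (adjusted p of up to 0.0638). Tab3, which codes for the other named target of Trim30a, stood at 0.03 ± 0.11 in BALB/c (limma adjusted p = 0.918) and 0.21 ± 0.13 in B6 (0.537). Ikbke, the kinase IKK-epsilon, fell by 0.90 ± 0.14 in BALB/c (limma adjusted p = 0.00233) and by 0.88 ± 0.18 in B6 (0.0104; lost with only the groups compared and without B6 iNKT17 replicate 2 or B6 ROR- replicate 1, with adjusted p of up to 0.134). In all 3 of the 22 genes rose and 1 fell in BALB/c, and 1 rose and 2 fell in B6, where 6.97% and 5.99% of all genes passed. In gamma-delta 17 minus ROR- cells of B6, 2 of the 22 rose, Tab2 (0.84) among them, and 1 fell, Ikbke (-0.70). Over all genes 6.02% passed in that comparison.

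Of 46 other Trim genes tested elsewhere in the genome, 0 were higher and 1 lower in BALB/c iNKT17 cells, and 0 passed in ROR- cells. Over all genes, 1.48% and 1.22% passed. The lower 1 was Trim59, at -0.92 ± 0.19 (limma adjusted p = 0.0360; lost under 8 of 21 alternatives). The list medians, -0.04 and 0.01, lay by those of all genes, 0.03 and 0.01. From ROR- to iNKT17 cells 3 rose and 1 fell in BALB/c and 1 rose and 0 fell in B6, where 6.97% and 5.99% of all genes passed. In gamma-delta 17 minus ROR- cells of B6, 1 rose, Trim37 (1.13), and 0 fell, where 6.02% of all genes passed. From ROR- to iNKT17 cells Trim37 rose in both strains, by 1.10 ± 0.20 in BALB/c (limma adjusted p = 0.00588) and 1.32 ± 0.25 in B6 (0.00743). The B6 call was lost with only the groups compared and without B6 iNKT17 replicate 2 or B6 ROR- replicate 1 (adjusted p of up to 0.0976).

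The 5 other genes whose levels over the 12 arrays were most like the mean of the members, by Pearson's r, were Gm1966 (0.958), Apol7e (0.957), Rab6b (0.957), Apobec3 (0.956) and D730005E14Rik (0.950). These r are a description over arrays that share strain and cell type. All 5 genes were lower in BALB/c in both cell types, the kind of difference by which the members were chosen. Of them only Gm1966 lies on chromosome 7. It read 4.04 to 5.07 on BALB/c arrays and 8.66 and 8.37 in B6 ROR- cells. In B6 iNKT17 cells it read 6.53 and 5.75, and in B6 gamma-delta 17 cells 7.64 and 8.20. Both B6 iNKT17 arrays of Gm1966 lay below the other B6 arrays, as for Trim30d. Apol7e, on chromosome 15, had the same order, at 7.14 and 6.48 in B6 iNKT17 cells and 7.73 to 8.38 on the other B6 arrays. The members' own r with their mean were 0.97 for Trim12a, 0.96 for Trim34a, 0.92 for Trim30d and 0.54 for Trim30a, and -0.68 for Trim12c, the gene with the opposite strain difference. Each member is part of that mean and was chosen with the strain difference known, so high r among the members show no likeness beyond that choice.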

How the data were processed

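The authors deposited 1 table of processed log2 values, 41345 probe sets on each of 12 arrays. They used oligo, an R package, per the submitters' processing notes. Its version, the background correction, normalization, summarisation and log base were not given in the sources used here, and log2 was taken from the range of the values. The values were used as deposited. Per the labels' protocols RNA came from frozen tissue by an RNeasy kit, while the labels name cells. Array medians lay between 4.10 and 4.30.

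The platform annotation gave the names, and it can be old: 23521 had 1 symbol, 1814 several and 16010 none, and no gene was named from a probe set with several. Gene order and promoters came from RefSeq tables of GRCm38.p6. For each of 22180 genes the brightest probe set was kept, and 16667 with at least 2 arrays above the 30th percentile (3.45) were tested; all 5 members passed, Trim30d on 9 arrays. The dim level is no measured background.

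A group-means model of all 12 arrays was fitted with limma 3.58.1 (eBayes, no trend) in R 4.3.3, with 7 residual and 4.50 prior degrees of freedom, Benjamini-Hochberg adjustment over all genes tested and a threshold of 0.05; it was tested on simulated data. The number of arrays, 2 or 3 a group, limits the precision. Members and gene lists were chosen with earlier results of these data known. Named genes were the 5 members, measured Trim neighbours and called neighbours, up to 4 of the largest called genes of each list and comparison, of which a part is given, and the 5 genes most like the members' mean. Alternatives were median centring, quantile normalization, other filters, the mean of probe sets, array weights, trend with robust, only the groups compared, the replicate block and each array left out.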

Additional observations from a re-analysis of the deposited data

How the results depend on the processing

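Of 30 tested member results, Trim30d in B6 was the only call, and it held under all settings but the 3 left-out arrays named with it; values that changed sign were all uncalled. Trim12c stood at 0.094 in the interaction with array weights, Trim34a at 0.08 for iNKT17 minus gamma-delta 17 with arrays centred, and Trim34a at -0.19 for iNKT17 minus ROR- in BALB/c with the mean of its probe sets. With single arrays left out, iNKT17 minus gamma-delta 17 ran from -0.62 to 0.73 for Trim12a and from -0.47 to 0.40 for Trim34a. The mean of strains ran from -0.45 to 0.23 for Trim12a and from -0.35 to 0.088 for Trim34a. In B6, iNKT17 minus ROR- ran from -0.79 to 0.085 for Trim12c and from -0.87 to 0.0022 for Trim34a, and the interaction from -0.50 to 0.38 for Trim12c. Gamma-delta 17 minus ROR- ran from -0.31 to 0.17 for Trim30a, from -0.43 to 0.29 for Trim30d and from -0.81 to 0.011 for Trim34a. Members called ran from 0 to 1 in B6 and from 0 to 2 in the mean of strains, where only the groups compared or the stricter filter gave 1.

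Counts of genes called, with single arrays left out, ran from 742 to 1151 in BALB/c (1161 with all arrays), from 486 to 1065 in B6 (998), from 0 to 15 in the interaction (14), from 5 to 58 for iNKT17 minus gamma-delta 17 (28), from 524 to 1153 for gamma-delta 17 minus ROR- (1003), from 77 to 531 for strains in iNKT17 (247), from 62 to 259 in ROR- (203) and from 288 to 1116 in their mean (764). Array weights gave 549 for strains in iNKT17 cells and 1159 in the mean. With only the groups compared, 82 genes were called for strains in ROR- cells and 2 for iNKT17 minus gamma-delta 17. The interaction gave 9 with arrays centred and 9 with quantile normalization. The causes were not tested.

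Whether the replicate numbers pair the samples could not be settled: deviations of same-numbered arrays correlated between -0.40 and 0.40. In groups of 2 arrays the values for same and different numbers mirror each other by construction. Between ROR- and iNKT17 cells, same-numbered arrays correlated at 0.40 in B6. In BALB/c they correlated at -0.40, -0.30 and 0.11 for replicates 1 to 3. The replicate block gave 6 interaction calls and 371 for the mean strain difference, left Trim30d called in B6 (limma adjusted p = 0.0161), and with the gamma-delta 17 numbers crossed, tried after the data were seen, gave 24 genes and 1 member for iNKT17 minus gamma-delta 17.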

Other observations

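Within each B6 group, the array with the higher mean of the 37 interferon-stimulated genes also had the higher level of 4 of the 5 members. This was seen after the values were known, and no test was made. The share of all genes higher on each of these arrays is not given here. Deviations of B6 ROR- and B6 iNKT17 replicate 1 correlated at 0.40, so these groups may not be separate repeats of the order. In ROR- cells the mean was 6.80 on replicate 1 and 6.76 on replicate 2, and all members but Trim12c were higher on replicate 1. In iNKT17 cells it was 6.29 on replicate 1 and 6.27 on replicate 2, and all but Trim30d were higher on replicate 1, Trim12a by the widest margin, at 7.76 against 6.41. In gamma-delta 17 cells it was 6.37 on replicate 2 and 6.22 on replicate 1, the array with neutrophil, CD8 and thymocyte markers, and all but Trim12c were higher on replicate 2. The BALB/c groups did not share this order. In BALB/c ROR- cells the array with the highest mean, replicate 1, was the highest of the 3 for Trim12a, Trim34a and Trim30a. In BALB/c iNKT17 cells the array with the highest mean, replicate 2, was the highest for Trim12a and the lowest for Trim12c, Trim34a and Trim30d. The means of the interferon-stimulated genes differed little within the B6 ROR- and iNKT17 pairs, where 20 of 37 genes were higher on the array named first.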
